A study of Mus musculus with 48 samples.

Results

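The bile acid receptor FXR was examined on the background of an interleukin-1 beta transgene, in whole mouse tissue from the junction of squamous oesophageal or forestomach lining and glandular stomach. Mice of the genotype labelled pl2_FXR were set against mice of the genotype labelled pl2, which carries human interleukin-1 beta under a viral promoter that is active in squamous oesophagus and forestomach. Both groups came from the facility labelled MRI, received chow, were 12 months old at the end point and carried the pl2 transgene. Each group had 3 arrays, so 6 of the 48 arrays of the series entered the comparison. A further 6 arrays, 3 for each genotype, from the same facility, diet and age, labelled FXR and WT without pl2, gave the same comparison without the transgene. The other 36 arrays (IL8, diet and Notch groups) were in none of the compared groups. They contributed to the estimate of the spread within groups and to the choice of probe sets and tested genes. They also entered the estimates of terms added to some fits, such as Xist, and the signal levels shown across all 48 arrays.

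The labels do not say what was changed in the FXR allele, nor in which cells, and they give neither the sex of a mouse nor its litter. Nothing in them says how the arrays of a group relate to each other. The p-values measure the spread between arrays within groups, pooled over all 16 groups, not the spread of the pl2 and pl2_FXR arrays alone. Of 34390 probe set entries, 23521 carried 1 gene symbol, which gave 22180 symbols when each symbol was represented by its entry of highest overall mean. The test covered the 15242 genes that lay above an array's own median signal on 3 or more arrays. Values are log2 signals, a difference of 1 is a doubling of signal, and errors beside differences are standard errors (SE) from a limma fit to all 48 arrays, with p-values adjusted by Benjamini-Hochberg over all 15242 genes.

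FXR, encoded by Nr1h4, is a nuclear receptor that binds bile acids and acts on DNA as a heterodimer with a retinoid X receptor. In liver and ileum it switches on genes that limit bile acid synthesis and uptake, such as the repressor Nr0b2 and the bile acid exporters. Bile acids that reflux into the distal oesophagus are a known irritant in Barrett oesophagus, where columnar cells take the place of the squamous lining, and pl2 mice serve as a model of it.

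The 3 pl2 arrays did not form one kind of sample. Xist, the RNA made from the inactive X chromosome, read 11.50, 12.17 and 10.66 in the pl2_FXR arrays, against 12.17, 4.92 and 3.83 in the pl2 arrays. The Y-linked gene Kdm5d, a histone demethylase, read 2.91, 2.60 and 2.96 in pl2_FXR arrays, against 2.87, 7.54 and 6.94 in pl2 arrays. Arrays with Xist above 8 are called Xist-high below. All 3 pl2_FXR arrays and pl2 replicate 1 were Xist-high, as were all FXR and WT arrays, while pl2 replicates 2 and 3 were Xist-low. In the series 28 arrays were Xist-high and 20 Xist-low. Over all tested genes, pl2 replicates 2 and 3 correlated with each other at 0.976, and pl2 replicate 1 correlated with the pl2_FXR arrays at 0.958 to 0.976 and with pl2 replicates 2 and 3 at 0.946 to 0.964.

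Genes of squamous and of glandular lining were both detected, as the labelled junction holds both. The suprabasal squamous mean was 9.18, 9.71 and 9.35 in pl2_FXR arrays, against 9.77, 9.75 and 9.62 in pl2 arrays, and the mean of 9 parietal cell genes was 9.06, 8.73 and 8.48 in pl2_FXR arrays, against 8.71, 8.62 and 8.74 in pl2 arrays. Liver transcripts differed between arrays of one group. The mean of 10 hepatocyte genes, among them albumin (Alb), was 5.07, 5.32 and 8.96 in pl2_FXR arrays, against 7.16, 6.06 and 8.42 in pl2 arrays. It was above 8 in 1 array of each group. Of the 48 arrays, 10 had a mean above 8 for these or for intestinal enterocyte genes.

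Limma called 13 genes at an adjusted p below 0.05 between pl2_FXR and pl2 tissue, 0.0853% of those tested, and all 13 were higher in pl2_FXR. These calls rest on the spread pooled over all groups. In a limma fit to the compared groups alone, each of the 13 had an adjusted p of 0.829. None of the 13 calls held with the Xist-high arrays alone or with Xist above 8 as a term in the fit. None was called lower (0.00%), although 359 genes were lower at an unadjusted p below 0.05 (2.36%) and 756 were higher (4.96%). Of the 13 called genes, 5 belong to a list of 26 endothelial genes, 3 to the 8 fibrillar collagens, 2 to the 21 basement membrane genes and 1, Lox, to the 17 genes of collagen processing and crosslinking. In 12 of the 13 the 3 pl2_FXR arrays lay above all pl2 arrays, and Col5a2 overlapped. Over all genes, 844 (5.54%) lay higher without overlap and 627 (4.11%) lower without overlap. In whole tissue, fewer cells of a type and less RNA per cell cannot be told apart.

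The endothelial genes were Sox18, Tie1, Podxl, Eng and Cdh5. Sox18, a transcription factor of developing vessels, read 5.39, 5.93 and 5.49 in pl2_FXR arrays, against 4.78, 3.64 and 3.85 in pl2 arrays, a difference of 1.52 ± 0.28 (adjusted p = 0.0207). Tie1, a receptor tyrosine kinase of endothelial cells, read 5.60, 5.69 and 5.38 in pl2_FXR arrays, against 5.18, 3.65 and 3.62 in pl2 arrays, a difference of 1.41 ± 0.27 (adjusted p = 0.0207). Eng, a co-receptor for ligands of the transforming growth factor beta family, read 7.81, 7.70 and 8.01 in pl2_FXR arrays, against 7.37, 5.64 and 6.15 in pl2 arrays (1.45 ± 0.29, adjusted p = 0.0268). In each of these, pl2 replicate 1 was the highest pl2 array and lay nearest to the pl2_FXR arrays. Cdh5, the cadherin of endothelial junctions, differed by 1.46 ± 0.30 (adjusted p = 0.0383). Podxl, a sialomucin of the vessel lumen that podocytes also carry, differed by 1.55 ± 0.30 (adjusted p = 0.0208).

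In the called collagen genes and Lox, too, pl2 replicate 1 was the highest pl2 array. Col1a1, the alpha-1 chain of type I collagen, read 9.25, 8.84 and 8.81 in pl2_FXR arrays, against 8.24, 7.0 and 6.72 in pl2 arrays, a difference of 1.65 ± 0.33 or 3.13-fold (adjusted p = 0.0268). Col3a1, the chain of type III collagen, read 7.72, 7.22 and 7.71 in pl2_FXR arrays, against 7.17, 5.89 and 5.90 in pl2 arrays (1.23 ± 0.26, adjusted p = 0.0496). Col5a2, a chain of the type V collagen that sets fibril width, read 5.81, 5.45 and 5.76 in pl2_FXR arrays, against 5.49, 4.22 and 3.94 in pl2 arrays (1.12 ± 0.24, adjusted p = 0.0480). The second pl2_FXR array of Col5a2 lay below pl2 replicate 1. Lox, the oxidase that begins the crosslinking of collagen and elastin, read 6.09, 5.98 and 6.11 in pl2_FXR arrays, against 4.84, 4.06 and 4.69 in pl2 arrays (1.53 ± 0.29, adjusted p = 0.0207). For Lox the gap between the groups was wider than the range within either.

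In the basement membrane list 2 genes passed. Col15a1, a collagen of the zone between basement membrane and stroma, read 5.18, 5.28 and 5.76 in pl2_FXR arrays, against 5.11, 3.94 and 3.85 in pl2 arrays (1.11 ± 0.21, adjusted p = 0.0208). Lamb1, the beta-1 chain of laminin, read 7.23, 7.30 and 7.68 in pl2_FXR arrays, against 6.97, 6.28 and 5.93 in pl2 arrays (1.01 ± 0.20, adjusted p = 0.0268). Col4a1, the main collagen of the basement membrane, lay just outside the threshold at 1.34 ± 0.29 (adjusted p = 0.0511). The other called genes were Dysf, a membrane repair protein of muscle that endothelium also makes, and Cysltr1, a receptor for cysteinyl leukotrienes. Dysf read 6.09, 6.32 and 5.90 in pl2_FXR arrays, against 5.84, 3.79 and 3.64 in pl2 arrays (1.68 ± 0.31, adjusted p = 0.0207). Cysltr1 read 4.36, 4.53 and 5.05 in pl2_FXR arrays, against 3.67, 3.55 and 3.03 in pl2 arrays (1.23 ± 0.23, adjusted p = 0.0207).

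**Figure D1:**
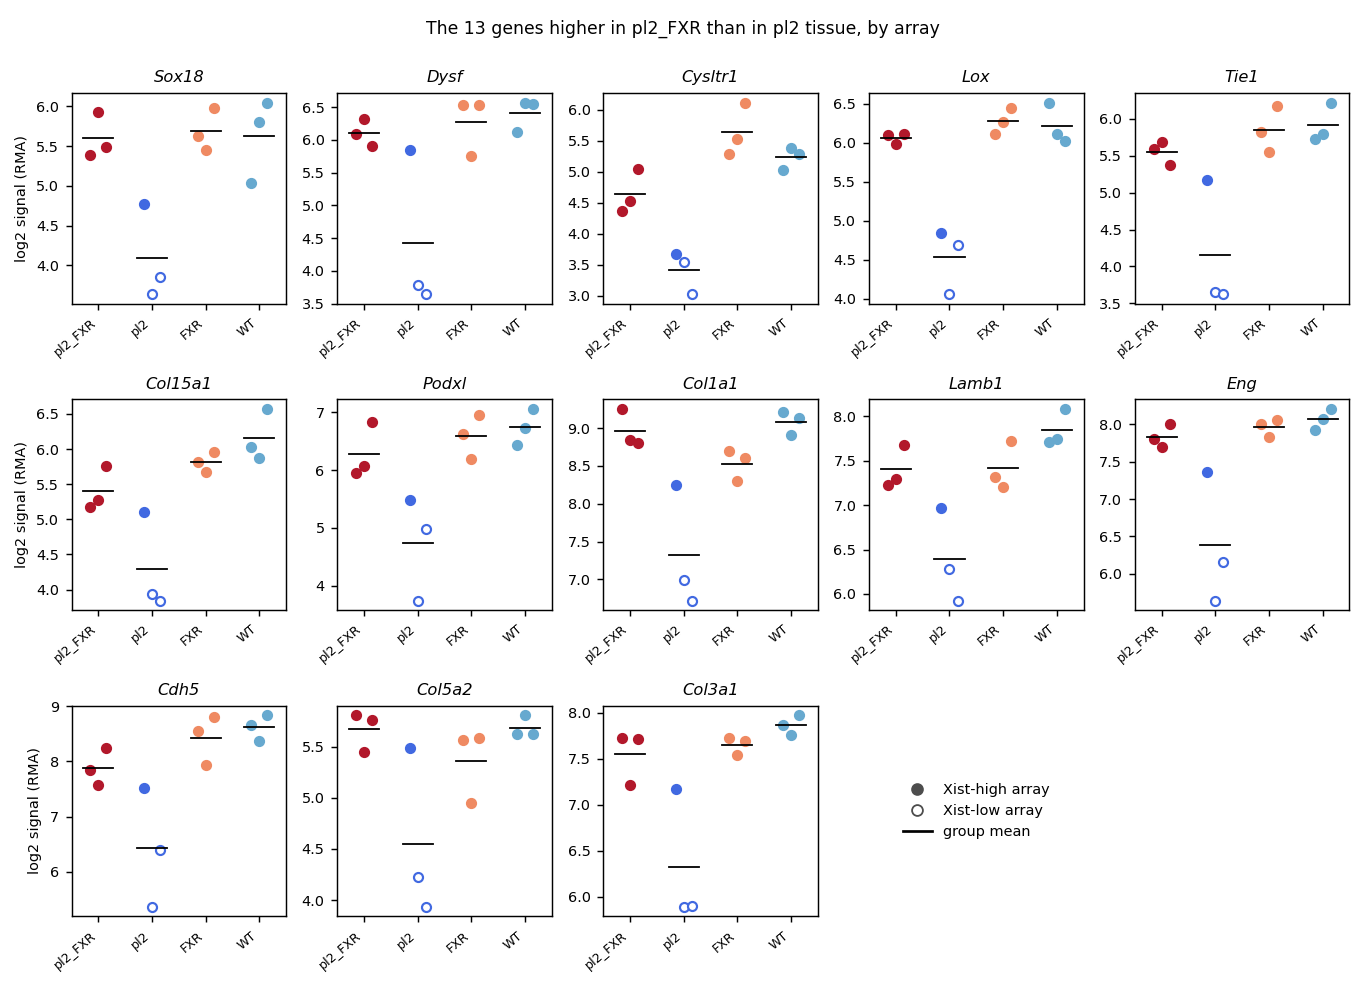
Log2 signal (y axis) of the 13 genes called higher in pl2_FXR than in pl2 tissue, in the 3 arrays each of pl2_FXR, pl2, FXR and WT (x axis). Each point is 1 array, filled where Xist was high and open where it was low, and bars are group means. In every panel pl2 replicate 1, the filled pl2 point, is the highest of the pl2 arrays.

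With the Xist-high arrays alone, pl2 keeps 1 array, and none of the 13 genes passed (0 genes called, 637 at an unadjusted p below 0.05). The differences stayed positive for all 13 but spanned 0.18 to 1.22. Lox differed by 1.22 and Cysltr1 by 0.98 among those arrays, while Col5a2 differed by 0.18, Dysf by 0.27 and Col15a1 by 0.30. With all arrays and Xist above 8 as a term, again none passed, but the differences spanned 0.91 to 1.59, against 1.01 to 1.68 in the fit without the term. Without pl2 replicate 1 the count was 223, of which 207 were higher and 16 lower, with differences of 1.30 to 2.39 for the 13. Without pl2 replicate 2 or replicate 3, and without pl2_FXR replicate 2 or replicate 3, it was 0, and without pl2_FXR replicate 1 it was 4.

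**Figure D2:**
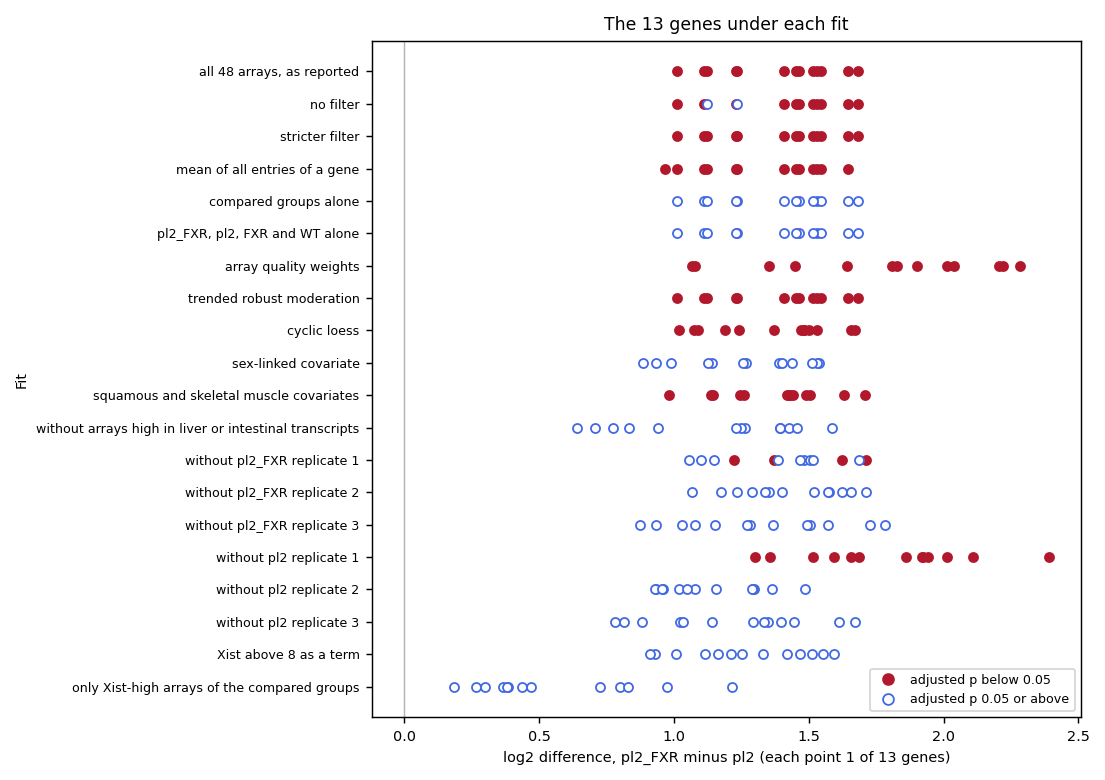
Log2 difference, pl2_FXR minus pl2 (x axis), of the 13 called genes (1 point each) under each fit (y axis), red where the adjusted p was below 0.05. All points lie above 0, and with the Xist-high arrays alone they span 0.18 to 1.22 with none below the threshold.

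The means of FXR and of WT tissue, both without the transgene, lay above the pl2 mean for all 13 genes. Col1a1 read 8.69, 8.30 and 8.60 in FXR tissue, against 9.21, 8.91 and 9.14 in WT tissue. Cdh5 averaged 7.89 ± 0.34 in pl2_FXR arrays, against 6.43 ± 1.08 in pl2 arrays, and 8.43 ± 0.45 in FXR arrays, against 8.62 ± 0.24 in WT arrays (SD, n = 3 each). For Lox and Cysltr1, all 3 pl2 arrays, Xist-high and Xist-low alike, lay below every FXR and WT array. The mean of the 26 endothelial genes was 4.80 in pl2 replicate 2 and 4.96 in replicate 3, the lowest of all 48 arrays, and the other 46 spanned 5.59 to 6.73. Of the 6 arrays compared, the Xist-low ones were both pl2, so among these arrays Xist status cannot be fully told apart from genotype. In the 5 other groups with both kinds of array, the Xist-low minus Xist-high difference of the 13 genes ran from -0.13 (Cysltr1) to 0.20 (Lox). The smallest adjusted p of these in limma was 0.688 (Dysf). Of the other 46 arrays, 18 were Xist-low, with lowest means of 5.79 for endothelial and 5.32 for fibrillar collagen genes. What set the 2 Xist-low pl2 arrays apart was not tested. In the other groups, 2 arrays of Notch lines had both Xist and Y-linked transcripts high and count as Xist-high here. The 8 tested fibrillar collagens had means of 5.04 and 4.96 in those arrays of pl2 and 5.24 to 6.26 in the other 46.

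**Figure D3:**
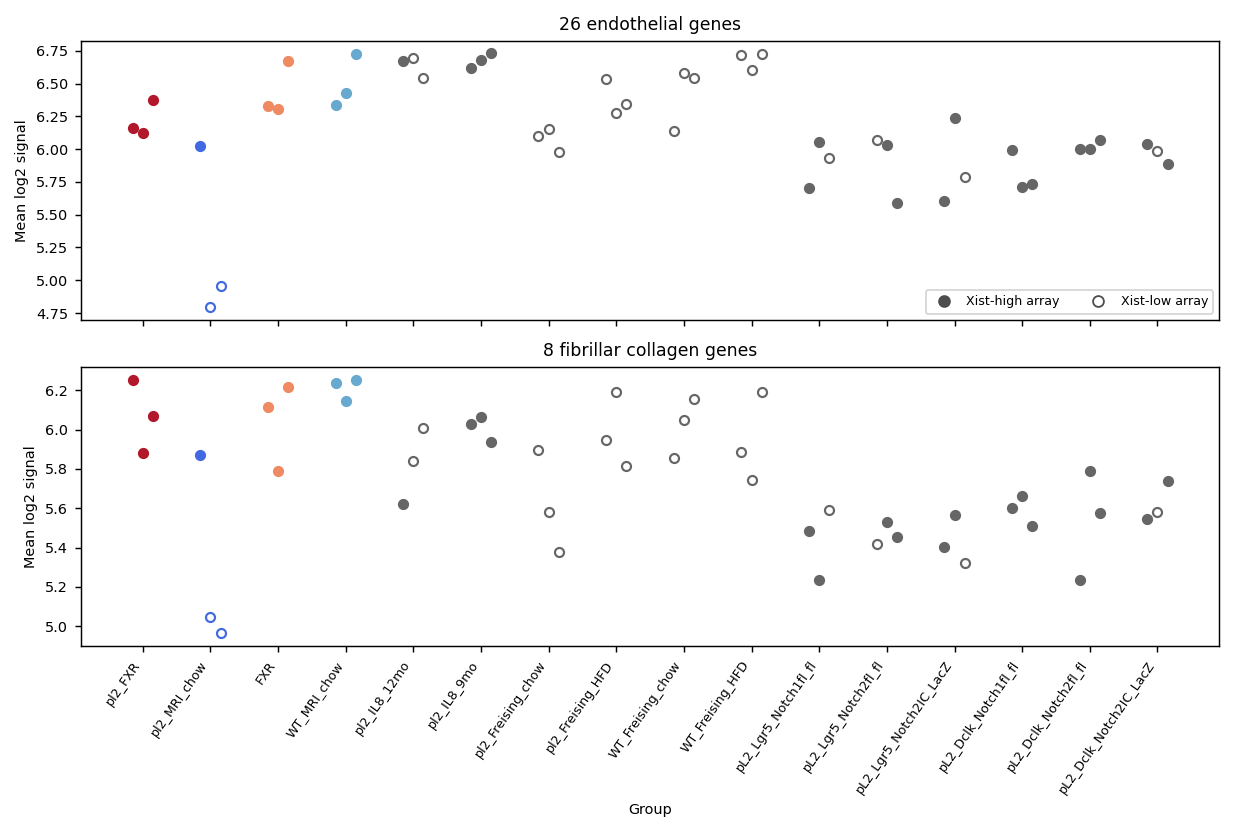
Mean log2 signal (y axes) of 26 endothelial and 8 fibrillar collagen genes in each of the 48 arrays, by group (x axis), filled where Xist was high and open where it was low. The 2 Xist-low pl2 arrays lie below the other 46 in both panels.

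Promoters of 3 of the called genes are printed 5′ to 3′, chosen because they hold a searched motif, to show where it lies. RefSeq promoters in mouse build GRCm38.p6 were matched for 6 of the 13 called genes, as 250 bases before a start site. The capitals mark AGGAAG, read on either strand, in Tie1 and Eng, and TATAAA in Col3a1. AGGAAG holds the GGAA core bound by ETS factors, a family with endothelial members.
Tie1 promoter (chr4:118489850-118490099, minus strand): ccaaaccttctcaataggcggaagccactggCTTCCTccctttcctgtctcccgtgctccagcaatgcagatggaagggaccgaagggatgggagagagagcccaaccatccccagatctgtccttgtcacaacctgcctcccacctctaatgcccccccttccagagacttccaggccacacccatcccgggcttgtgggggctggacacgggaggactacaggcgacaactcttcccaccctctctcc
Eng promoter (chr2:32646345-32646594, plus strand): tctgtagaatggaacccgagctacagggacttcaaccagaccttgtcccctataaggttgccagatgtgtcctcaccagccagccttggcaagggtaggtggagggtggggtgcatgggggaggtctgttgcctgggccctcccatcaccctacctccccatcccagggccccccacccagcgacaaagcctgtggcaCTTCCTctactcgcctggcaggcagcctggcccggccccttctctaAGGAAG
Col3a1 promoter (chr1:45311288-45311537, plus strand): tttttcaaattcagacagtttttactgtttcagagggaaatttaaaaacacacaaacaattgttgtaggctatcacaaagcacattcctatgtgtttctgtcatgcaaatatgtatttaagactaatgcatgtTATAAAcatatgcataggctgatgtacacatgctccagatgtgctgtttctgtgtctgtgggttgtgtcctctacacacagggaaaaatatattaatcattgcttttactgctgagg
Of the 7 promoters of these genes (Dysf has 2), 3 held AGGAAG, against 29.5% of 32851 promoters of that length. AGGTCA, the hexamer read by many nuclear receptors, was in 1 of the 7 (14% of all). The inverted repeat of AGGTCA spaced by 1 base, the best known FXR element, was in 0 of the 7 and in 2 of all promoters. All motifs were searched on both strands. GGGCGG was in 2 of the 7 (32.7% of all), TATAAA in 1 (12.4% of all) and CCGGAAG in none (6.91% of all). The Col15a1 promoter held none of the motifs. With 7 promoters these counts are near the shares of all promoters, and a match describes these letters only.

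With all arrays weighted alike, neither Nr1h4 nor any FXR target gene passed the test. Nr1h4 read 4.82, 4.67 and 4.94 in pl2_FXR arrays, against 4.39, 5.73 and 5.73 in pl2 arrays. It differed by -0.47 ± 0.37 (adjusted p = 0.895, 95% interval -1.23 to 0.29), and the position of its probe set in the gene is not known, so this checks nothing about the allele. Among Xist-high arrays the sign turned, with a difference of 0.42. Of 18 tested genes of the FXR target and bile acid response list, 0 were called and 1 was higher at an unadjusted p below 0.05 (4.96% over all genes). The median difference of the list was -0.13, against -0.0063 over all tested genes.

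Nr0b2, the repressor that FXR induces in liver, read 6.59, 6.24 and 6.67 in pl2_FXR arrays, against 6.14, 5.95 and 6.37 in pl2 arrays (0.35 ± 0.39, adjusted p = 0.950). The bile salt export pump Abcb11 read 3.57, 3.98 and 5.96 in pl2_FXR arrays, against 4.40, 5.21 and 5.12 in pl2 arrays, and its highest reading was in the pl2_FXR array with high hepatocyte genes. Pltp, a phospholipid transfer protein, had the smallest p of the list at 0.66 ± 0.26 (adjusted p = 0.529). The partner receptor Rxra differed by -0.14 ± 0.19 (adjusted p = 0.974). Of 13 bile acid synthesis and uptake genes, 0 were called; Cyp7a1, the rate-limiting enzyme of bile acid synthesis, read 2.79, 2.39 and 5.99 in pl2_FXR arrays, against 4.08, 2.94 and 4.04 in pl2 arrays.

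Il1b, the gene of the mouse counterpart of the transgene, read 6.35, 7.87 and 7.43 in pl2_FXR arrays, against 7.17, 7.25 and 8.88 in pl2 arrays. The groups overlapped (-0.55 ± 0.65, adjusted p = 0.957), and whether the probes also read the transgene is not known. Of 24 interleukin-1 and NF-kB cytokine genes, 0 were called and 2 were lower at an unadjusted p below 0.05 (2.36% over all genes). A negative difference was seen in 20, with a median of -0.33. Tnf, an inflammatory cytokine, read 5.96, 5.66 and 6.07 in pl2_FXR arrays, against 6.11, 6.62 and 7.07 in pl2 arrays (-0.70 ± 0.34, adjusted p = 0.675). The median of this list was 0.11 among the Xist-high arrays. The 11 neutrophil genes had a median of -0.34, with 0 called, and 0.29 among the Xist-high arrays.

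No gene of the other stromal lists was called. For the counts below, 4.96% of all tested genes were higher at an unadjusted p below 0.05. Of 17 proteoglycan and matricellular genes, 12 were higher at an unadjusted p below 0.05 and the median was 1.03, and 0.26 among Xist-high arrays. Bgn, a small leucine-rich proteoglycan of the matrix, read 11.48, 11.25 and 11.23 in pl2_FXR arrays, against 11.06, 9.92 and 9.37 in pl2 arrays (1.21 ± 0.27, adjusted p = 0.0792). Of 11 smooth muscle genes, 5 were higher at an unadjusted p below 0.05, with a median of 1.29, and among Xist-high arrays the median was -0.053. Myh11, the smooth muscle myosin heavy chain, read 11.09, 10.79 and 10.28 in pl2_FXR arrays, against 10.81, 8.27 and 8.39 in pl2 arrays (1.56 ± 0.68, adjusted p = 0.600). Here pl2 replicate 1 lay within the range of the pl2_FXR arrays. The endothelial list had 23 of 26 genes higher at an unadjusted p below 0.05 and a median of 1.00, which was 0.19 among the Xist-high arrays.

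Among the endothelial genes that missed the threshold, Kdr, the main receptor for vascular endothelial growth factor, differed by 1.41 ± 0.32 (adjusted p = 0.0927). Pecam1, an adhesion molecule of endothelial junctions, read 7.51, 7.41 and 7.38 in pl2_FXR arrays, against 7.38, 6.05 and 6.11 in pl2 arrays (0.92 ± 0.25, adjusted p = 0.196). Cldn5, a tight junction protein, differed by 0.12 ± 0.42 and Sox7 by -0.21 ± 0.33, so the list did not move as one. Medians were 0.63 for 9 pericyte genes, 0.70 for 11 elastic fibre genes, 0.59 for 16 fibroblast genes and 0.61 for 21 basement membrane genes. Of these genes 5, 8, 8 and 13 were higher at an unadjusted p below 0.05, against 4.96% over all genes. Among the Xist-high arrays these medians were -0.078 for pericyte, 0.14 for elastic fibre, 0.058 for fibroblast and 0.15 for basement membrane genes. The fibrillar collagen median was 0.86 with all arrays and 0.12 among the Xist-high arrays. Within the basement membrane list, the perlecan gene Hspg2 differed by 1.11 ± 0.27 (adjusted p = 0.108) and Nid1, which links laminin to type IV collagen, by 1.41 ± 0.39 (adjusted p = 0.202). The epithelial laminin chains Lama3 and Lamb3 differed by -0.13 ± 0.29 and -0.26 ± 0.27, so they did not share the direction of Lamb1. Hhip, a Hedgehog-binding protein, differed by 1.98 ± 0.47 (adjusted p = 0.105).

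Among collagen and matricellular genes that missed the threshold, 3 examples again had pl2 replicate 1 as the highest pl2 array. Col1a2, the partner chain of Col1a1 in type I collagen, read 8.26, 7.92 and 8.02 in pl2_FXR arrays, against 7.56, 6.60 and 6.30 in pl2 arrays (1.25 ± 0.29, adjusted p = 0.105). Aspn, a small leucine-rich matrix protein, read 7.58, 6.53 and 6.91 in pl2_FXR arrays, against 6.36, 4.48 and 4.37 in pl2 arrays (1.94 ± 0.48, adjusted p = 0.132). Postn, a matricellular protein of remodelling stroma, read 9.51, 9.40 and 9.81 in pl2_FXR arrays, against 9.27, 8.27 and 7.46 in pl2 arrays (1.24 ± 0.36, adjusted p = 0.231). All 3 were higher in every pl2_FXR array than in any pl2 array, and pl2 replicate 1 came closest.

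Of 12 macrophage genes, 0 were called, 10 were higher at an unadjusted p below 0.05 (4.96% over all genes) and 2 had a negative difference. In 7 the groups lay higher without overlap (5.54% over all genes). The median was 0.80, and 0.56 among the Xist-high arrays. Csf1r, the receptor for the macrophage growth factor, read 7.24, 7.38 and 7.32 in pl2_FXR arrays, against 6.75, 6.17 and 6.28 in pl2 arrays (0.91 ± 0.26, adjusted p = 0.224). C1qb, a complement chain made by macrophages, read 7.91, 7.67 and 7.94 in pl2_FXR arrays, against 7.17, 6.62 and 6.37 in pl2 arrays (1.12 ± 0.33, adjusted p = 0.262). Both lay higher in every pl2_FXR array than in any pl2 array, but Cd68, a lysosomal protein of the same cells, did not (-0.22 ± 0.22). The 7 B and plasma cell genes had a median of 0.74 with 0 called, and Ighm, the heavy chain of immunoglobulin M, read 12.63, 12.00 and 12.79 in pl2_FXR arrays, against 12.15, 10.90 and 10.35 in pl2 arrays (1.34 ± 0.61, adjusted p = 0.634). The 8 MHC class II genes, which present antigen, had a median of 0.54 with 0 called.

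**Figure D4:**
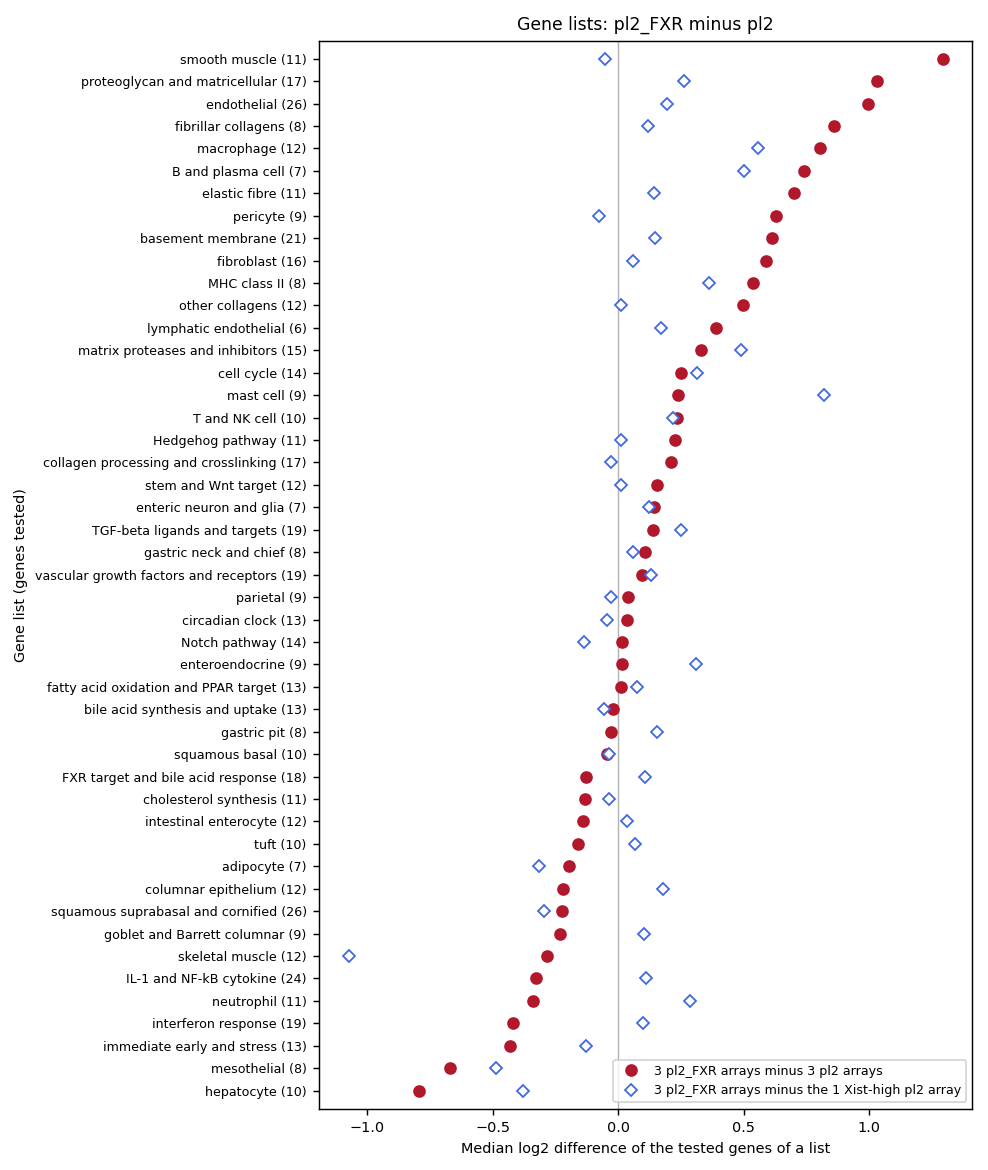
Median log2 difference (x axis) of the tested genes of each list (y axis, number of tested genes in brackets), pl2_FXR minus pl2. Circles use all 3 arrays per group and diamonds set the 3 pl2_FXR arrays against the 1 Xist-high pl2 array. The smooth muscle median is 1.29 as a circle and -0.053 as a diamond.

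No gene was called lower with all 48 arrays weighted alike, and the genes with the smallest p in that direction are given as values. Gpx2, a glutathione peroxidase of gut epithelium, read 4.19, 3.82 and 4.82 in pl2_FXR arrays, against 5.46, 5.44 and 5.38 in pl2 arrays (-1.15 ± 0.30, adjusted p = 0.157). All its pl2_FXR arrays lay below all pl2 arrays, and the difference was -1.18 among Xist-high arrays. Pdx1, a transcription factor of pancreas, duodenum and antrum, read 4.79, 4.58 and 4.95 in pl2_FXR arrays, against 5.20, 5.94 and 6.48 in pl2 arrays (-1.10 ± 0.29, adjusted p = 0.158). Hspa1a, a heat shock chaperone, read 7.75, 7.0 and 6.92 in pl2_FXR arrays, against 10.39, 8.90 and 8.73 in pl2 arrays (-2.12 ± 0.56, adjusted p = 0.170). For this gene the Xist-high pl2 array was the farthest from pl2_FXR, and the difference among Xist-high arrays was -3.17. Without pl2 replicate 1, 16 genes were called lower, among them Pdx1 (-1.43), and with array quality weights, whose estimation stopped before convergence, 495 were. Pdx1, Fgd6, Plcd3 and Ppm1j were called lower in both of these fits. With all arrays weighted alike, Fgd6 differed by -0.67 ± 0.16 (adjusted p = 0.105), Plcd3 by -0.75 ± 0.19 (adjusted p = 0.152) and Ppm1j by -1.04 ± 0.29 (adjusted p = 0.196).

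The hepatocyte list had a median of -0.80, with 0 of 10 called, beside the array-to-array differences given above. Mesothelial genes followed at -0.67, with 0 of 8 called and 3 lower at an unadjusted p below 0.05 (2.36% over all genes). Msln, a surface protein of mesothelium, read 4.53, 3.28 and 3.39 in pl2_FXR arrays, against 4.53, 5.54 and 4.72 in pl2 arrays (-1.20 ± 0.38, adjusted p = 0.293). Upk1b and Upk3b, uroplakins that mesothelium also makes, differed by -1.47 ± 0.49 and -1.21 ± 0.45, with overlapping arrays. The immediate early and stress list had a median of -0.43 and the interferon list one of -0.42, each with 0 called. Among Xist-high arrays these medians were -0.49, -0.13 and 0.10 for mesothelial, stress and interferon genes.

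No epithelial list had a called gene. The median was -0.22 for 26 squamous suprabasal genes, -0.046 for 10 squamous basal genes, -0.22 for 12 columnar genes and -0.23 for 9 goblet and Barrett columnar genes. Among the Xist-high arrays these medians were -0.295, -0.038, 0.18 and 0.10, so the sign turned for the columnar and the goblet and Barrett lists. Krt4, a keratin of upper squamous layers, read 8.97, 10.29 and 8.75 in pl2_FXR arrays, against 10.82, 10.33 and 10.58 in pl2 arrays (-1.24 ± 0.61, adjusted p = 0.680). Gastric pit genes had a median of -0.029 and parietal genes one of 0.037. The 11 cholesterol synthesis genes all had a negative difference, with a median of -0.13 and 0 called. The 14 Notch pathway genes and the 13 circadian clock genes had medians of 0.016 and 0.035.

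The FXR difference with the transgene was then set against the FXR difference without it, as pl2_FXR minus pl2, less FXR minus WT. Limma called 21 of 15242 genes (0.138%), 14 with a higher difference on the transgene (0.0919%) and 7 with a lower one (0.0459%), and 2139 (14%) had an unadjusted p below 0.05. All of the genes named here had an adjusted p of 0.0478. The 2 differences have no array in common.

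The called squamous genes had small differences with the transgene and large negative ones without it. Krt16, a keratin of activated squamous epithelium, read 10.85, 11.25 and 11.68 in pl2_FXR arrays, against 11.03, 11.19 and 11.37 in pl2 arrays, and 1.66, 6.81 and 5.39 in FXR arrays, against 8.11, 9.79 and 9.66 in WT arrays. The difference was 0.07 with the transgene and -4.57 without it, and the difference of the 2 was 4.63 ± 0.98. Dsg3, a cadherin of squamous desmosomes, read 9.62, 10.51 and 10.42 in pl2_FXR arrays, against 10.38, 10.16 and 10.11 in pl2 arrays, and 5.79, 7.19 and 7.78 in FXR arrays, against 9.35, 9.55 and 10.01 in WT arrays, a difference of effects of 2.69 ± 0.52. Cd44, a hyaluronan receptor of epithelial progenitors and leukocytes, gave 1.65 ± 0.30, with differences of 0.03 on the transgene and -1.63 without it. The squamous genes Krt17 (3.03 ± 0.67) and Sprr1a (1.35 ± 0.30) were also called and were chosen after their values were seen.

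The squamous lists as a whole had medians of -0.22 (suprabasal) and -0.046 (basal) with the transgene, and -1.61 and -1.49 without it. The circadian clock genes had a median of 0.035 with the transgene and -1.025 without it, and the smooth muscle genes 1.29 and -0.375. Median differences of effects were 1.53 for clock, 1.64 for smooth muscle, 1.47 for squamous basal and 1.38 for suprabasal genes. Of the clock and smooth muscle genes, 0 were called in this comparison. FXR arrays had suprabasal means of 6.74, 7.55 and 7.56, against 8.65, 9.05 and 9.54 in WT arrays. Skeletal muscle means moved beside them, at 4.81, 4.23 and 4.70 in FXR arrays, against 6.70, 6.01 and 6.70 in WT arrays. Adding both means to the fit left 15 genes called, 4 of them among the 21. The suprabasal mean includes Krt16, Krt17 and Sprr1a themselves, so this fit cannot test the part of the squamous genes in the result.

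The matrix genes Col1a1, Lamb1 and Col15a1, called between pl2_FXR and pl2 tissue, were called here too. Col1a1 gave 2.20 ± 0.47, from differences of 1.65 with the transgene and -0.55 without it. Lamb1 gave 1.45 ± 0.29, from differences of 1.01 and -0.43. Col15a1 gave 1.45 ± 0.30, from differences of 1.11 and -0.34. In these 3 the larger share lay between pl2_FXR and pl2 arrays, the comparison that holds the Xist-low arrays. The part of the Xist-low arrays in it was not tested beyond the fits that leave them out or add Xist as a term. The clone-named gene 9930111J21Rik2 gave 2.37 ± 0.46.

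Genes with a lower difference on the transgene differed by about 1 on the log2 scale. Paxx, a factor of DNA end joining, gave -1.19 ± 0.24, and its difference was -0.17 with the transgene and 1.02 without it. Tcta gave -1.45 ± 0.30, Dnase1l1 -1.26 ± 0.27, Dolpp1 -0.93 ± 0.20 and Preb -1.0 ± 0.22. Dolpp1 read 7.27, 7.28 and 7.27 in pl2_FXR arrays, against 7.53, 7.74 and 7.83 in pl2 arrays, and 7.58, 7.5 and 7.65 in FXR arrays, against 7.05, 7.24 and 6.92 in WT arrays. Its groups did not overlap in either pair, and they ran in opposite directions. With Xist-high arrays alone, 0 of these genes were called (1197 genes at an unadjusted p below 0.05). Without pl2 replicate 1 the count was 252, and it was 0 without pl2 replicate 2 or 3, pl2_FXR replicate 2 or 3, FXR replicate 1 or WT replicate 3. It was 2 without FXR replicate 2 and 11 without pl2_FXR replicate 1.

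**Figure D5:**
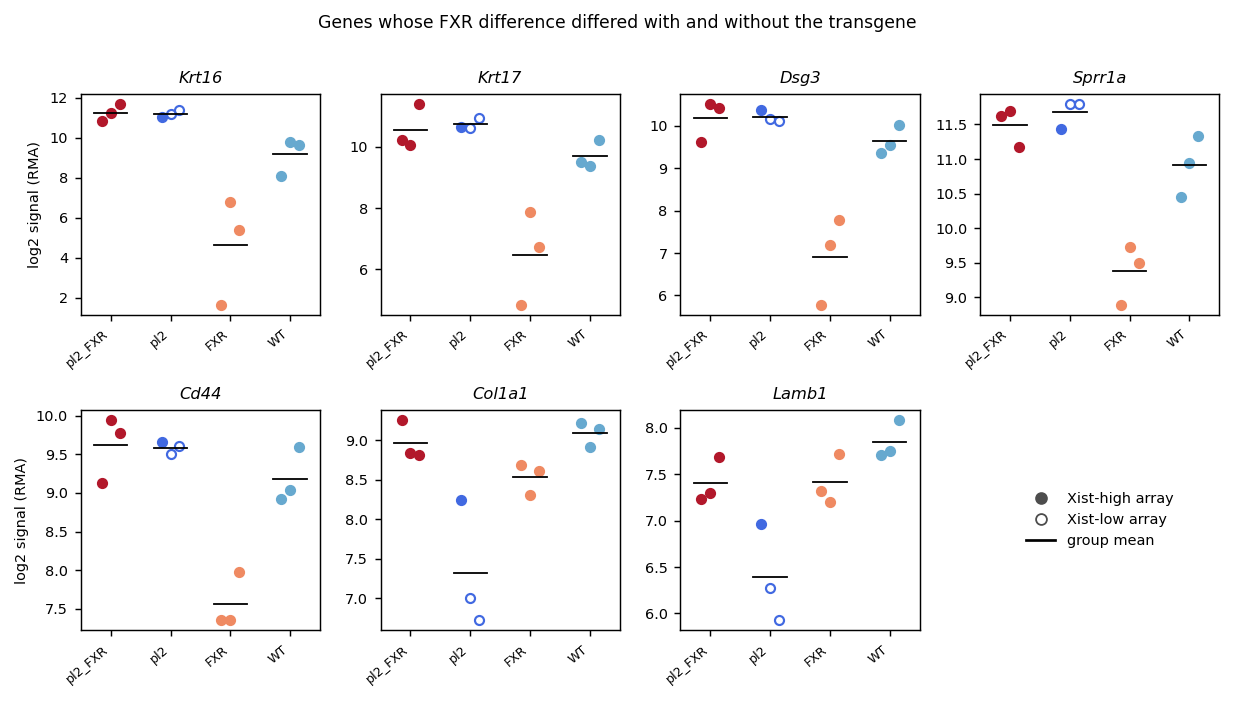
Log2 signal (y axis) of 7 genes whose FXR difference differed with and without the transgene, in the arrays of pl2_FXR, pl2, FXR and WT (x axis), filled where Xist was high and open where it was low, with bars for group means. Krt16 lies between 10.85 and 11.68 in pl2_FXR arrays, and between 1.66 and 6.81 in FXR arrays.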

How the data were processed

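The authors deposited log2 signals per probe set from Affymetrix arrays, made by RMA in Affymetrix Expression Console per the submitters' processing notes; its version and the genome build are not given in the sources used here. From these, limma 3.58.1 in R 4.3.3 fitted 1 mean for each of 16 groups to all 48 arrays (32 residual degrees of freedom), with Benjamini-Hochberg adjustment and a call at adjusted p below 0.05. Array medians lay between 4.03 and 4.27, and no arrays were identical. The number of arrays limits the precision. On simulated data for pl2_FXR minus pl2 with 15242 genes, 64% of genes changed by 1 and 11% of genes changed by 0.5 were called, and 2 of 15042 unchanged genes.

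Members and the 49 gene lists were chosen with earlier results of these data known, so no list is independent evidence. Lists are described by counts and medians, without a test. Named genes were Nr1h4, Il1b and the FXR target list, all called genes (up to 30), the 10 smallest p-values per direction without predicted or clone-named genes, members of the lists, and, for the difference of effects, the called genes up to 10 and the 5 smallest p-values per direction. From these, examples are given. Replicate numbers name arrays in accession order only. Alternatives changed the filter, the probe set rule, the arrays in the fit, array weights, moderation, normalisation and covariates.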

Additional observations from a re-analysis of the deposited data

Results flagged for a closer look

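The difference of effects, pl2_FXR minus pl2 less FXR minus WT, passed limma's test of the difference itself (adjusted p below 0.05) in 21 genes, which is what marks them here. Higher with the transgene were Krt16 (4.63), Krt17 (3.03), Dsg3 (2.69), 9930111J21Rik2 (2.37), Col1a1 (2.20), Cd44 (1.65), Col15a1 (1.45), Lamb1 (1.45) and Sprr1a (1.35). Lower with the transgene were Tcta (-1.45), Dnase1l1 (-1.26), Paxx (-1.19), Preb (-1.0) and Dolpp1 (-0.93). Among the arrays behind them, the 2 Xist-low pl2 arrays differ from the rest of their group, and hepatocyte means were high in pl2_FXR replicate 3 (8.96), pl2 replicate 3 (8.42) and WT replicate 1 (9.29). Their part in these differences was not tested beyond the fits without them.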

How the results depend on the processing

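All 13 called genes stayed positive under every fit run. The count of 13 was 11 with no filter, 14 with a stricter filter, with trended robust moderation or with cyclic loess, 13 when probe sets of a gene were averaged, and 17 with squamous and skeletal muscle covariates. It was 0 in the compared groups alone (899 genes at an unadjusted p below 0.05), in pl2_FXR, pl2, FXR and WT alone (1140), with the sex-linked covariate (846; differences of the 13 of 0.89 to 1.54, against 1.01 to 1.68 as reported) and without arrays high in liver or intestinal transcripts (830; 0.64 to 1.59). It was 1580 with array quality weights (1085 higher, 495 lower), whose estimation stopped before convergence. Leaving out 1 array gave 0 to 223, the 223 being 207 higher and 16 lower. Fits chosen after seeing the data gave 0 with Xist above 8 as a term (882; 0.91 to 1.59) and 0 with the Xist-high arrays alone (637; 0.18 to 1.22), where the smooth muscle median turned to -0.053 and the pericyte median to -0.078. The 21 genes of the difference of effects became 0 with no filter (2624 at an unadjusted p below 0.05), in the 4 groups alone (2166), with the sex-linked covariate (1819), with the Xist term (1676) and with the Xist-high arrays alone (1197). They became 1563 with array quality weights, 2 without arrays high in liver or intestinal transcripts, 15 with squamous and skeletal muscle covariates, and 0 to 252 on leaving out 1 array. The cause of these changes was not tested. Fits on fewer arrays also hold fewer samples, and the part of that was not tested either. No paired analysis was possible because replicate numbers were given in accession order and the labels pair no arrays.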
